A study of Mus musculus with 4 samples.

Results

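The nuclear genes for subunits of the oxidative phosphorylation (OXPHOS) complexes were followed in nascent RNA of C2C12 myotubes. They were taken by symbol: Ndufa, Ndufb, Ndufc, Ndufs and Ndufv genes with a number, Uqcr genes, Cox4 to Cox8 genes, Atp5 genes, and Sdha to Sdhd. At least 10 counts were required in every library, and repeated rows were dropped. This gave 73 genes of 23282 features in the table. By enzyme they were 33 genes of complex I, 3 of complex II, 8 of complex III, 14 of complex IV and 15 of complex V. Ndufa4 was placed in complex IV, where its protein is now known to belong, and Cox7a2l, a supercomplex factor, was kept because its symbol met the rule.

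C2C12 is an established mouse muscle cell line of female origin whose myoblasts fuse into myotubes. All myotubes had been deprived of steroids before treatment. They then received vehicle or 1 µM dexamethasone, a synthetic glucocorticoid, for 2 h, with 2 libraries in each group. RNA bound to chromatin was extracted from nuclei, so the counts reflect mainly newly made transcripts rather than the cytoplasmic mRNA pool. Both groups come from 1 cell line, and nothing in the labels says that the libraries came from separate cultures, so p-values measure only the spread between these libraries.

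Oxidative phosphorylation takes place in the mitochondrial inner membrane. Complexes I and II pass electrons from NADH and succinate to ubiquinone, complex III passes them to cytochrome c and complex IV to oxygen, while complex V makes ATP from the proton gradient that I, III and IV build. Most subunits are encoded in the nucleus, a few core ones in mitochondrial DNA, and nuclear factors such as NRF1, GABPA, the estrogen-related receptors (ERR) and YY1 are known to act at many of the nuclear promoters. Skeletal muscle fibres use the pathway heavily and carry muscle forms of several complex IV subunits.

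The promoters of the genes were compared for letters these factors are known to bind. RefSeq (GRCm38.p6) windows of 300 bases, from 250 before to 50 after a transcript start, were found for 60 of the 73 genes, in 65 windows. The promoters below were chosen because 3 of them carry the NRF1 core together with an ETS match and the last, of the gene for the catalytic beta subunit of ATP synthase, holds none of the motifs searched. They are given 5′ to 3′ along the gene's strand up to 30 bases after the start, and capitals mark matches to CGCATGCG (NRF1 core), CCGGAAG or its reverse complement CTTCCGG (ETS, the family of GABPA), AAGGTCA (ERR) and AAGATGGCG (YY1). Atp5k (subunit e of ATP synthase) lies at chr5:108434370-108434649 on the minus strand, Cox6a1 (the general form of a small complex IV subunit) at chr5:115348929-115349208 on the minus strand, Atp5j (coupling factor 6) at chr16:84834947-84835226 on the minus strand and Atp5b at chr10:128083057-128083336 on the plus strand.
Atp5k: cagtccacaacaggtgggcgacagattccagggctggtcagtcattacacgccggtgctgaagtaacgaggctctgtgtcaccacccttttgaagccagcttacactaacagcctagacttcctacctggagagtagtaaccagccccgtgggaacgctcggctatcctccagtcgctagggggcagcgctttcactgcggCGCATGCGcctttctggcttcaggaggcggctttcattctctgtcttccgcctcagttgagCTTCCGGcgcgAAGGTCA
Cox6a1: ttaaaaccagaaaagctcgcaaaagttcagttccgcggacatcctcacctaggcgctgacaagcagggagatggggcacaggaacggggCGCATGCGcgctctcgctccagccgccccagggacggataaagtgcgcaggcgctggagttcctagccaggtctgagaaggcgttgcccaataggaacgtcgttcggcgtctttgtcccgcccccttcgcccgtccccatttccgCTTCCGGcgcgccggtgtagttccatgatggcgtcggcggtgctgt
Atp5j: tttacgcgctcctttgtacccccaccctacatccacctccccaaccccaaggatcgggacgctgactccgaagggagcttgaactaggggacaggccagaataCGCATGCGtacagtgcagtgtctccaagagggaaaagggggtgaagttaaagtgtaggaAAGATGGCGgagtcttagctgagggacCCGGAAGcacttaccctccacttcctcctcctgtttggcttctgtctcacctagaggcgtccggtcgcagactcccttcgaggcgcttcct
Atp5b: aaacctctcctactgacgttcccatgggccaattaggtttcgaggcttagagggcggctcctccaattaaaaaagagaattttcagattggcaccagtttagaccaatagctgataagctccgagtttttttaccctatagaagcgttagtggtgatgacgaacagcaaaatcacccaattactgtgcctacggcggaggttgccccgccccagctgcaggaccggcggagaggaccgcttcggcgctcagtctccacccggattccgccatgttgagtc

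Each motif was searched as exact letters on both strands. The comparison set was all 32851 RefSeq windows of this length, of 27025 genes, whether or not the gene was tested here. The NRF1 core was in 8 of 65 windows (12.3%, against 1.87% of all windows), in Atp5g2, Atp5j, Atp5k, Cox6a1, Ndufa11, Ndufa8, Uqcr11 and Uqcrc1. The ETS letters were in 14 windows (21.5% against 8.86%), the YY1 letters in 7 (10.8% against 1.40%) and the ERR letters in 6 (9.23% against 4.72%). The palindromic glucocorticoid receptor element was in 0 of the 65 windows and in 0.475% of all windows. The letters TATAAA were in 7 windows (10.8%), against 13.6% of all. Uqcr11 also held the NRF1 core with an ETS match but is not printed, and Atp5j had another window, not printed, without a match. No match in the printed promoters overlaps another. A match is only a match of letters in this window, and no test was made of these shares.

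**Figure D1:**
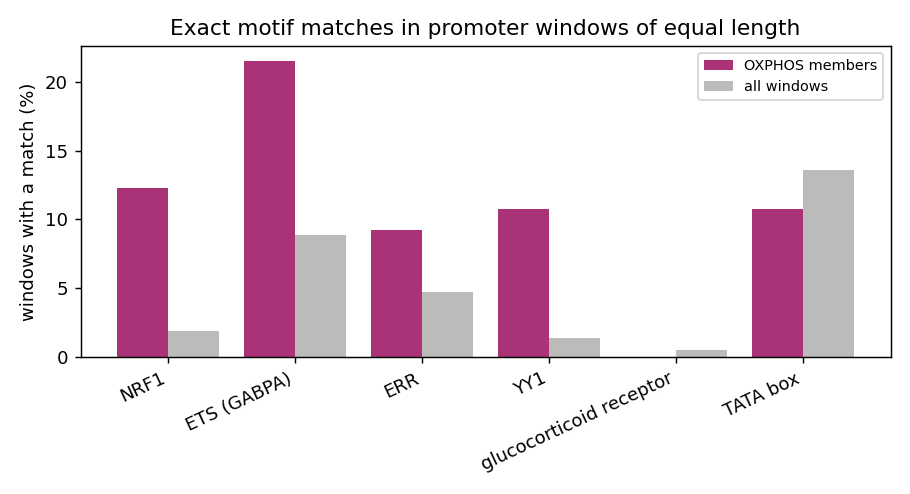
Share of promoter windows of 300 bases with an exact motif match on either strand (y axis, percent). It is given for the 65 windows of OXPHOS subunit genes and for all 32851 RefSeq windows, whether or not the gene was tested. NRF1 is the core of 8 letters. The bars for NRF1, ETS, ERR and YY1 are higher for the OXPHOS genes (12.3, 21.5, 9.23 and 10.8%), and that for TATA is lower (10.8 against 13.6%).

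Levels are given as CPM, counts scaled to an equal library total with TMM factors. The libraries held 19631435 and 35116830 counts for vehicle and 32463331 and 88596296 for dexamethasone. The 73 genes took 0.195% and 0.171% of the vehicle counts and 0.195% and 0.172% of the dexamethasone counts, with Wilson 95% intervals of 0.1927 to 0.1966%, 0.17 to 0.1727%, 0.1939 to 0.1969% and 0.1715 to 0.1732%. These intervals cover counting error only. The median OXPHOS gene was read 292 and 515 times with vehicle and 495 and 1243 times with dexamethasone. All 12 myotube markers examined were expressed, whereas the adipocyte markers (Adipoq, Plin1, Fabp4) and macrophage markers (Adgre1, Ptprc, Csf1r) were at no more than 9 counts in any library. The myoblast, fibroblast and dividing cell markers were all detected. With edgeR fitted on group alone, 0 of these 10 genes were called between treatments, with Pax7 and Col1a1 lower and Pdgfra higher at an unadjusted p under 0.05. Of the myoblast markers, Pax7 averaged 35.5 CPM with vehicle and 20.4 with dexamethasone, Pax3 0.772 and 0.399, and Myf5 1.52 and 1.86. Of the fibroblast markers, Col1a1 averaged 35.9 and 18.3 CPM, Dcn 5.07 and 3.57, and Pdgfra 5.21 and 10.6. The 4 dividing cell markers (Mki67, Top2a, Ccnb1, Cdk1) summed to 22.7 and 21.2 CPM with vehicle and 21.8 and 25.6 with dexamethasone.

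No OXPHOS subunit gene passed the test for a change after 2 h of dexamethasone. With edgeR's quasi-likelihood test at an adjusted p of 0.05, 0 of 73 genes were called higher and 0 lower, where 0.0376% of the 13285 tested features were called higher (5 features) and 0 were called lower. At an unadjusted p of 0.05 the OXPHOS counts were also 0 and 0, against 4.09% of all features higher and 1.69% lower. DESeq2, which called 236 features higher and 53 lower, called 0 of the 73 genes. limma-voom called 0 features in all, so its 0 says nothing of these genes. The lowest unadjusted p among them was 0.2167, for Ndufb2, and the adjusted p of every one was 0.9999.

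The log2 fold changes of the 73 genes lay between -0.39 and 0.35, with a median of 0.042, and 67 of them were within 0.2 of 0. Their interquartile range was 0.128, compared with 0.269 over all tested features, whose median was -0.0016. Values above 0 were found for 49 genes (67.1%) and below 0 for 24, and 49.7% of all features were above 0. That split was 37 to 36 when libraries were scaled by the upper quartile, with 43.3% of all features above 0, or by their totals alone, with 41.2%. The median relative to that of all features was 0.043 under each of the 3 scalings. A scaling is 1 factor per library and shifts all features nearly alike, so this difference could hardly change. Leaving out dexamethasone replicate 1 put the median at -0.124 and leaving out dexamethasone replicate 2 put it at 0.160. With vehicle replicate 1 left out it was 0.144, and with the other vehicle library left out it was -0.110, so its sign turned with the library removed. The medians of all features in these 4 fits lay between -0.012 and 0.017. Each of these fits leaves the treatments unbalanced by library number, and the OXPHOS genes differed by number. Their median log2 ratio of library 2 to library 1, over both groups, was -0.257. Between same-numbered libraries, the median log2 ratio of dexamethasone to vehicle was 0.045 for number 1 and 0.015 for number 2.

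How small a change could have gone unseen differed between genes. The standard errors ran from 0.118 for Ndufa10, a complex I accessory subunit with 65.7, 66.2, 70.3 and 68.2 CPM, to 0.805 for Ndufa1. For 55 genes the 95% interval of the fold change lay within 2-fold in either direction, and for 26 it lay within 1.5-fold. In the genes outside the wider limit, among them Atp5b, Cox6a2 and Ndufa1, a 2-fold difference lay inside the interval.

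**Figure D2:**
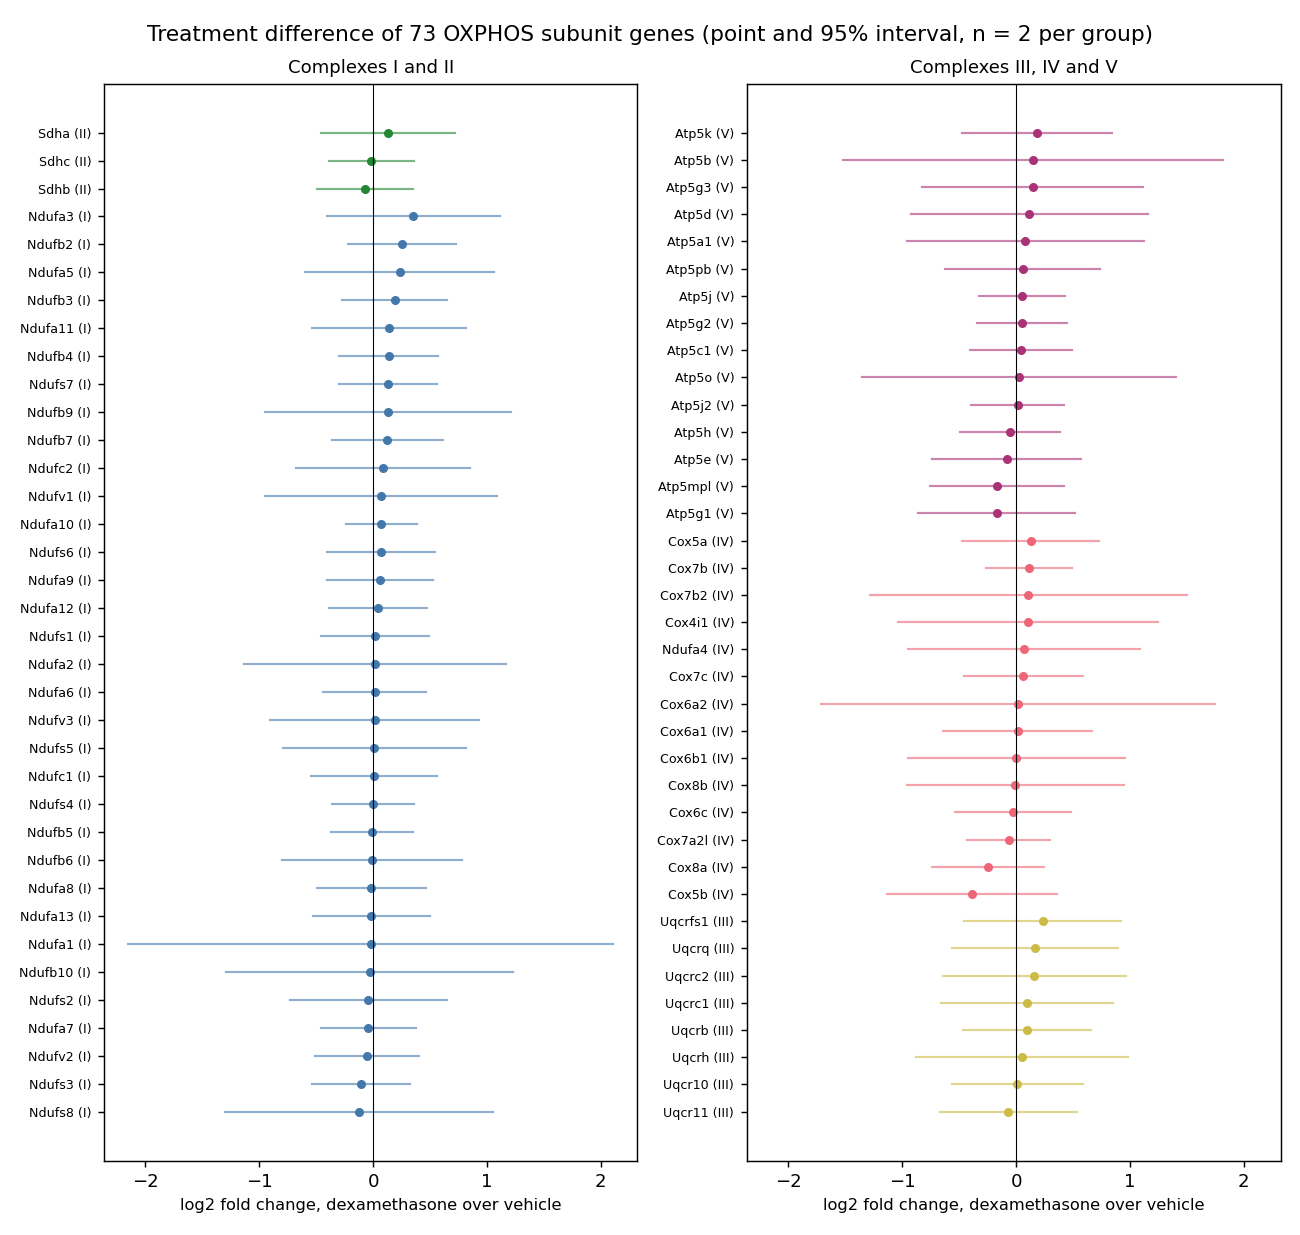
Log2 fold change of dexamethasone over vehicle (x axis) for the 73 genes (y axis), with points for the estimate and lines for the 95% interval, 2 libraries per group. All 73 intervals, from the fit on group alone, include 0, and the widest are those of Ndufa1, Cox6a2 and Atp5b.

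Complex I, the NADH dehydrogenase, showed a median log2 fold change of 0.02 and 21 of its 33 genes above 0. Ndufs1, which holds iron-sulfur clusters in the peripheral arm, was at 103.0 and 85.8 CPM with vehicle and 106.2 and 84.9 with dexamethasone (log2 fold change 0.02, SE 0.179). Ndufv1, the NADH-binding subunit, was at 47.9 and 28.6 CPM with vehicle and 51.2 and 29.1 with dexamethasone. For both genes the groups overlapped, and the libraries numbered 1 were the high ones. Ndufs4, an accessory subunit whose loss causes complex I deficiency in mice and people, had the most counts of all 73 genes, at 195.9 and 174.2 CPM with vehicle against 194.8 and 174.9 with dexamethasone (-0.0016, 95% interval -0.36 to 0.36).

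The largest estimates in complex I belonged to accessory subunits with few counts. Ndufa3 was at 4.40 and 3.14 CPM with vehicle and 5.31 and 4.30 with dexamethasone (0.35, SE 0.286). Its second dexamethasone library lay below the first vehicle library, so the groups overlapped. Ndufb2 was at 7.51 in both vehicle libraries and at 9.41 and 8.55 with dexamethasone (0.26, SE 0.179, 95% interval -0.22 to 0.73), which leaves the groups apart. Ndufa5 was at 11.9 and 7.48 CPM with vehicle and 13.2 and 9.52 with dexamethasone (0.23), and Ndufb3 at 10.7 and 9.46 against 11.2 and 11.8 (0.19). The lowest estimates were those of 2 core subunits, Ndufs8 (-0.12, 14.5 and 7.85 CPM against 13.3 and 7.23) and Ndufs3 (-0.11, 29.0 and 34.4 against 27.8 and 31.0), both with overlapping groups.

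Complex II, succinate dehydrogenase, is also an enzyme of the citric acid cycle. Its flavoprotein gene Sdha was at 90.6 and 66.8 CPM with vehicle and 97.4 and 74.9 with dexamethasone (0.13, SE 0.223). Sdhb, the iron-sulfur subunit, was at 32.5 and 29.0 against 31.5 and 27.1 (-0.07), and the membrane anchor Sdhc at 47.0 and 42.5 against 46.3 and 42.2 (-0.01, SE 0.140). All 3 overlapped between groups.

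Complex III had the highest median, 0.09, with 7 of its 8 genes above 0 and every gene overlapping between groups. The Rieske iron-sulfur protein gene Uqcrfs1 was at 13.4 and 10.5 CPM with vehicle and 16.5 and 11.5 with dexamethasone (0.23, SE 0.261). The core protein genes Uqcrc1 (38.0 and 27.3 against 42.0 and 27.8 CPM) and Uqcrc2 (46.7 and 29.7 against 50.2 and 35.0) gave 0.10 and 0.16. In each of these the first library of either group was higher than both second libraries.

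Complex IV, cytochrome c oxidase, had a median of 0.02 and held both of the most negative estimates. Cox5b, a nuclear subunit on the matrix side, was at 4.61 and 3.29 CPM with vehicle and at 3.04 and 2.98 with dexamethasone (-0.39, SE 0.281, 95% interval -1.13 to 0.36). Cox8a, the general form of the smallest subunit, was at 8.53 and 8.25 against 7.51 and 6.63 (-0.25, SE 0.186). In both genes the dexamethasone libraries lay below the vehicle libraries, and in both the interval included 0. Cox4i1, the general form of subunit IV, was at 30.6 and 15.7 CPM with vehicle and 31.5 and 18.2 with dexamethasone (0.10, SE 0.431).

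Complex V, the ATP synthase, had a median of 0.05, with 11 of 15 genes above 0. The catalytic core genes Atp5a1 (alpha) and Atp5c1 (gamma) gave 0.08 and 0.04, at 104.3 and 55.5 CPM against 104.3 and 64.6 for Atp5a1 and 99.1 and 82.3 against 102.2 and 84.6 for Atp5c1. Atp5k was at 4.94 and 7.01 CPM with vehicle and 6.64 and 6.98 with dexamethasone (0.18, SE 0.249). Its low value was the first vehicle library alone. Atp5g1, which encodes subunit c of the membrane rotor, was at 3.92 and 3.19 against 2.94 and 3.34 (-0.17), and Atp5mpl, a small membrane subunit, at 12.8 and 9.38 against 10.2 and 9.5 (-0.17).

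Taking each gene's 4 libraries, the dexamethasone values both exceeded the vehicle values in 6 of 73 genes (8.22%), against 15.0% of all tested features. These were Ndufa10, Ndufb2, Ndufb3, Ndufb4, Ndufs7 and Cox7b. They lay below in 4 genes (5.48%), against 12.9% of all features: Cox5b, Cox8a, Cox7a2l and Atp5h. Neither share exceeded that of the whole table.

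The libraries of 1 group differed more than the groups did, for most OXPHOS genes and for most features. In 59 of 73 genes (80.8%) the mean difference between the libraries numbered 1 and 2 was larger than the difference between treatments, against 68.4% of all tested features. Both libraries numbered 2 lay below both numbered 1 in 48 genes (65.8%, against 31.8% of all tested features) and above in 8 (11.0%, against 32.1%). The median log2 ratio of library 2 to library 1 was -0.29 with vehicle and -0.26 with dexamethasone, compared with 0.008 and 0.011 over all features. The numbers are those of the labels, which name no batch or day for them.

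**Figure D3:**
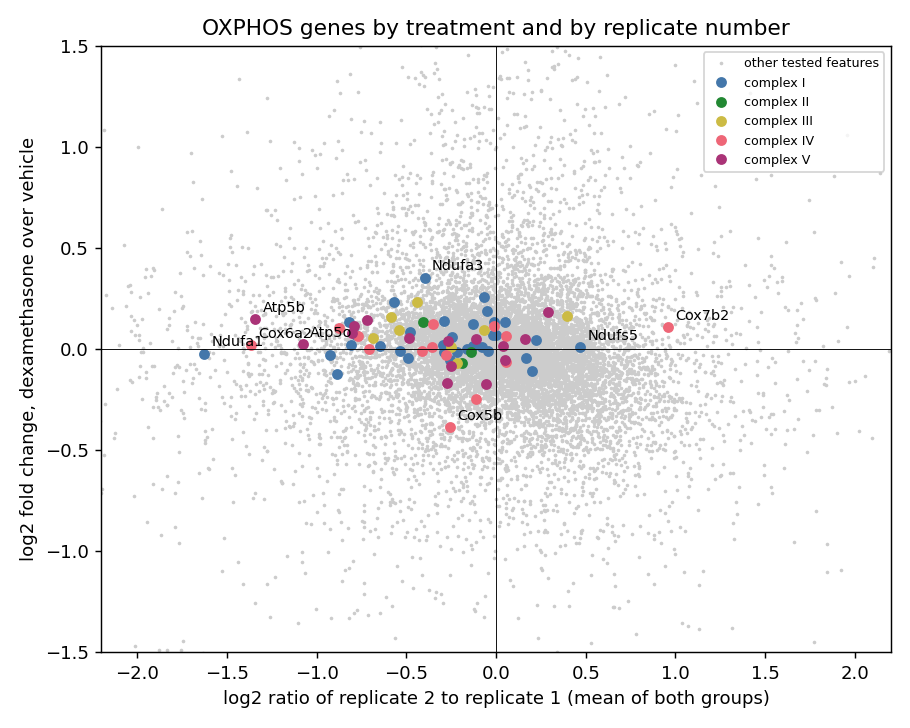
Each point is a gene, with the mean log2 ratio of library 2 to library 1 over both groups on the x axis and the log2 fold change of dexamethasone over vehicle on the y axis; colours mark the complexes and grey the other tested features, of which those beyond the axes are not drawn. The OXPHOS genes spread along the x axis, mostly to the left of 0 (48 below in both groups), and little along the y axis (67 within 0.2 of 0).

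The genes with the widest spread came from several complexes. Atp5b had 150.9 CPM in the first vehicle library and 57.8 in the second, and 164.5 and 66.8 with dexamethasone. The second vehicle library and the first dexamethasone library had similar totals, yet held 2194 and 4930 counts of Atp5b. Cox6a2, the muscle form of subunit VIa, was at 17.8 and 6.25 CPM with vehicle and 16.98 and 7.30 with dexamethasone. Ndufa1, an X-linked accessory subunit of complex I, was at 3.38 and 0.922 against 3.04 and 1.17 CPM, and rests on 35 to 109 counts. With Atp5o (22.7 and 11.3 against 23.8 and 10.8 CPM), which joins the stalk of ATP synthase to its catalytic head, these were the 4 genes at least 2-fold lower in the libraries numbered 2. In all 4 the treatments lay closer together than the numbers did.

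The 8 genes that were higher in both libraries numbered 2 were Ndufa7, Ndufa12, Ndufs3, Ndufs5, Uqcrq, Cox7b2, Atp5g2 and Atp5k. Cox7b2, which resembles the complex IV subunit Cox7b, was at 0.966 and 1.82 CPM with vehicle and 1.00 and 2.00 with dexamethasone, from as few as 18 counts. Ndufs5 was at 3.70 and 5.51 against 4.07 and 5.24 CPM. The smallest mean differences were those of Ndufs6, Ndufs7 and Cox7b, the last at 17.2 and 17.1 CPM with vehicle and 18.7 and 18.4 with dexamethasone.

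**Figure D4:**
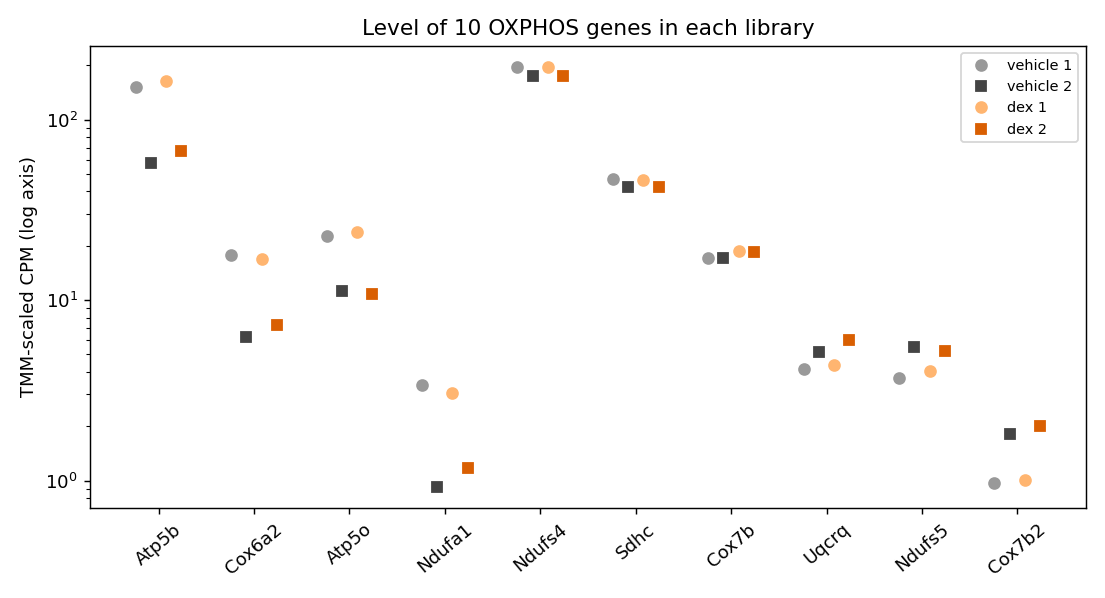
Level (y axis, TMM-scaled CPM, log axis) of 10 OXPHOS genes (x axis) in each library; circles are the libraries numbered 1, squares those numbered 2, grey vehicle and orange dexamethasone. For Atp5b the circles (150.9 and 164.5) stand above the squares (57.8 and 66.8), for Cox7b2 they stand below (0.966 and 1.00 against 1.82 and 2.00), and for Cox7b all 4 marks lie close.

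The difference by library number depended in part on scaling. Scaled by totals alone, 34 genes lay below and 21 above in the libraries numbered 2, against 18.5% and 49.9% of all features. That scaling moved the median of all features on this ratio from 0.0099 to 0.198. Relative to this median the OXPHOS genes stood at -0.27 under either scaling, a difference that a factor per library cannot change. With libraries thinned to the smallest total the counts were 44 and 8. Library 2 was the deeper one in each group. Myotube markers moved with the number as well: 10 of 12 lay below in both libraries numbered 2 and 0 lay above. Their median log2 ratio of library 2 to library 1 was -1.56 with vehicle and -1.60 with dexamethasone. Their summed levels were 129900 and 45980 CPM with vehicle and 125400 and 44910 with dexamethasone. Most of these sums was Ttn alone, at a mean of 79600 and 76650 CPM. The part of depth or of the marker difference in the OXPHOS values was not tested.

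Other gene groups are given beside them, as counts without a test. Over all tested features 31.8% lay below and 32.1% above in the libraries numbered 2. Of the 14 tested citric acid cycle genes, 12 lay below in the libraries numbered 2 and 0 above. Among mitochondrial ribosomal protein genes 38 of 76 lay below and 17 above, and among proteasome subunit genes 18 of 36 below and 8 above. For OXPHOS assembly factors the counts were 15 below and 14 above of 42, and for cytosolic ribosomal protein genes 23 below and 40 above of 85.

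Levels were compared between genes per kilobase of exon, from the union of all exons of a gene in the GENCODE annotation. Ndufs4 stood highest in every library, at 68.3 CPM per kilobase as a mean of the 4, and Atp5c1 came next in every library (48.3). Cox6b1 had the next mean (29.3), but that place went to Atp5b in the first dexamethasone library (38.8 against 36.5 for Cox6b1) and to Ndufa12 in both libraries numbered 2 (29.3 and 29.6). Atp5g1 (0.681) and Ndufb2 (1.47) were lowest in every library, and Cox5b (2.19) had the next lowest mean. Nascent RNA also holds introns, and per kilobase of the whole gene the order was different: Atp5b (15.5 CPM per kilobase), Cox6a2 (12.7) and Atp5a1 (8.99) were highest and Cox7b2 (0.0137), Atp5g1 (0.491) and Ndufa1 (0.595) lowest. Only Atp5g1 was among the lowest 3 on both scales. The genes are short, with a median span of 7674 bases against 25480 for all tested features. Across the 73 genes the mean count had a Spearman correlation of 0.698 with gene span and 0.619 with exon length, over genes that share the same 4 libraries.

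Several subunits have a muscle form beside a general one, and their shares were taken per exon length. Cox6a2 made up 69.8% and 51.0% of Cox6a1 and Cox6a2 together with vehicle and 68.6% and 54.7% with dexamethasone. The muscle form Cox8b made up 25.1% and 21.9% of the Cox8 genes with vehicle and 28.8% and 24.2% with dexamethasone. The shares overlapped between treatments in both. They depend on the length used. Per kilobase of the whole gene the mean was 12.7 CPM for Cox6a2 and 2.12 for Cox6a1, and 1.00 for Cox8b and 3.14 for Cox8a. Cox7a1, the muscle form of subunit VIIa, had only 8, 16, 14 and 12 counts, so it stayed under the minimum. Cox4i1 held at least 98.4% of the Cox4 counts per exon length, with 0, 5, 2 and 8 counts for Cox4i2, the form known from lung.

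**Figure D5:**
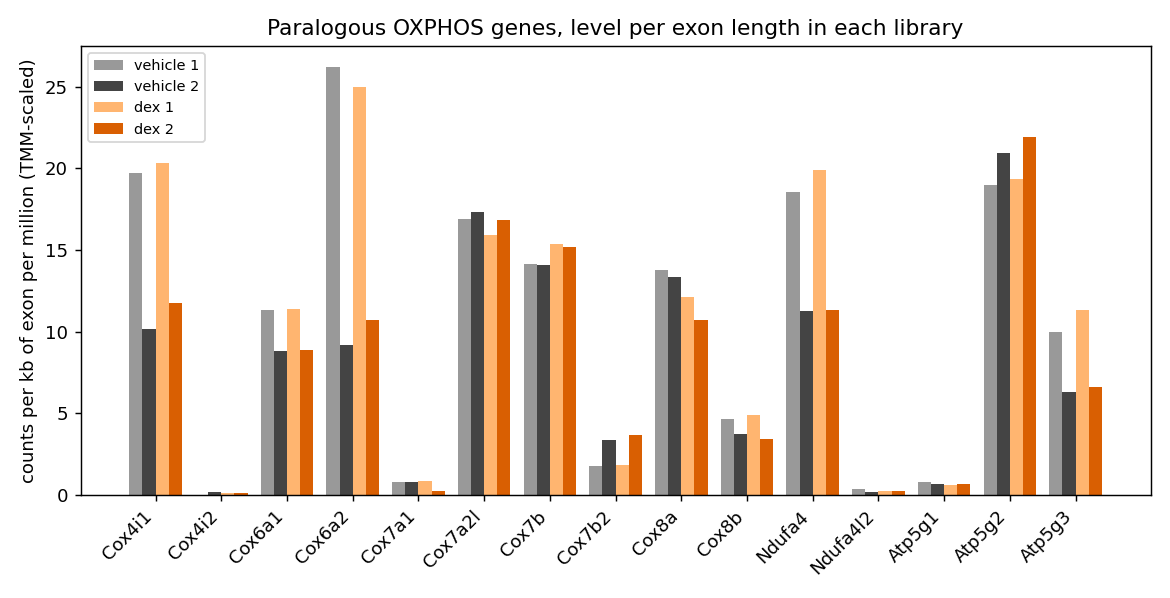
Level per exon length (y axis, TMM-scaled CPM per kilobase of exon) of OXPHOS genes with paralogous forms (x axis), with 1 bar for each of the 4 libraries. Cox6a2 and Atp5g3 are higher in the libraries numbered 1 (26.2 and 24.97, 9.96 and 11.3) than in those numbered 2 (9.19 and 10.7, 6.28 and 6.62), and Cox7a1 and Cox4i2 are close to 0 in all 4.

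Subunit c of ATP synthase is made from 3 genes that encode the same mature protein, and how reads common to such copies were counted is not given in the sources used here. Atp5g2 gave 63.8% and 75.2% of their summed level per exon length with vehicle and 61.9% and 75.01% with dexamethasone. Atp5g3 gave 33.5% and 22.5% against 36.2% and 22.7%, and Atp5g1 between 1.91% and 2.68%. These shares depend on the length used, and the exons span 4912 bases in Atp5g1, 1675 in Atp5g2 and 2181 in Atp5g3. Per kilobase of the whole gene Atp5g3 was highest, at a mean of 6.48 CPM, against 3.58 for Atp5g2 and 0.491 for Atp5g1. The level of Atp5g2 differed little between libraries (31.8 and 35.1 against 32.4 and 36.7 CPM), while Atp5g3 was at 21.7 and 13.7 against 24.7 and 14.5 CPM.

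Genes that act with the complexes were also without a call. Of 46 assembly factor genes 42 were tested and 0 were called higher or lower, with a median log2 fold change of 0.02. The largest estimates were those of Sco2, a copper chaperone for complex IV (0.68, SE 0.445, from 8, 14, 23 and 49 counts), and Lyrm7, a complex III assembly factor (-0.40, SE 0.227). All 14 citric acid cycle genes were tested, with 0 called and a median of -0.0030. Of 27 genes for electron carriers and exchangers 24 were tested, with 0 called and a median of 0.06, and the largest was Coq7, an enzyme of ubiquinone synthesis, at 0.44 (SE 0.376). That list also holds subunit genes whose symbols the rule misses, Cyc1 of complex III (0.21, SE 0.267) and Ndufab1 of complex I (-0.04, SE 0.149). In these 3 lists 0 genes had an unadjusted p under 0.05 either.

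Among 27 tested regulators of mitochondrial biogenesis 0 were called, and 1 had an unadjusted p under 0.05, in a table where 4.09% of features were higher and 1.69% lower at that threshold. The gene was Ppargc1b, a coactivator related to PGC-1alpha that promotes oxidative metabolism, at 163.8 and 164.1 CPM with vehicle and 111.8 and 109.8 with dexamethasone. Its log2 fold change was -0.57 (SE 0.113, edgeR adjusted p = 0.306), and the groups did not overlap. Ppargc1a, the gene of PGC-1alpha itself, was at 14.3 and 5.11 CPM with vehicle and 16.9 and 6.67 with dexamethasone (0.29, SE 0.673). The transcription factor genes Nrf1 (-0.02), Gabpa (0.12) and Esrra (-0.17), whose letters were searched in the promoters, had overlapping groups. Yy1, whose letters were searched as well, averaged 77.5 CPM with vehicle and 70.3 with dexamethasone (-0.14, SE 0.119). Its dexamethasone libraries lay below its vehicle libraries, as did those of 12.9% of all tested features.

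The symbol rule matched 86 rows, and 13 of them were not followed. Of these 1 was a repeated row for Atp5o. Genes listed at 0 in every library were Atp5l, Cox7a2, Ndufb11, Ndufb8, Sdhd, Atp5md and the pseudogene Cox7c-ps1. All but the pseudogene lie in runs of consecutive minus-strand genes at 0, of 371 genes for Cox7a2 and Sdhd, 164 for Atp5l, 146 for Ndufb8 and Atp5md and 87 for Ndufb11, so they are taken as not measured. The genes under the minimum were Cox4i2, Cox7a1, Cox6b2 (0, 0, 0 and 3 counts), Cox8c (0, 0, 0 and 1) and Ndufa4l2 (7, 7, 7 and 26). Just inside it were Cox7b2 (lowest count 18), Cox8b (31) and Ndufa1 (35). The 13 subunit genes of mitochondrial DNA were not analysed here. Of the 73 genes, 22 overlap another protein-coding entry of the annotation, 20 of them on the opposite strand, such as Cox6a2 with Itgad and Cox4i1 with Emc8. The strand setting of the counting is not given in the sources used here, so the reads of such pairs cannot be told apart.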

How the data were processed

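Chromatin-bound RNA of C2C12 myotubes was sequenced in 4 libraries, 2 per group. The authors deposited 1 table of whole-number read counts per gene. Per the submitters' processing notes the tools were TopHat2 2.0.13, SAMtools 1.1, HTSeq 0.6.1 and DESeq2 1.18.1 with build mm9; the annotation and the strand setting are not given in the sources used here. The labels' protocols name both a stranded total RNA kit and a stranded mRNA kit.

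From 23333 rows, 51 repeated rows were dropped. Features were filtered with filterByExpr (minimum count 10, minimum total 15), scaled with TMM (a trimmed-mean library factor) and tested on group alone with edgeR 4.0.16 (quasi-likelihood, Benjamini-Hochberg adjustment over 13285 features, threshold 0.05) in R 4.3.3. Levels are TMM-scaled CPM, the counts scaled to an equal library total. The standard error is the log2 fold change over the root of its F statistic. Scripts were tested on simulated data.

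GENCODE M21 (GRCm38) gave lengths, gene order and overlaps, matched by gene, and no coordinate was converted. Alternatives used DESeq2 1.42.0 and limma 3.58.1, other scalings and filters, and left out each library. Genes named in the text were those with the largest or smallest estimates, levels or differences by library number, paralogous forms, the best covered genes of each complex and, in pathway lists, the largest estimates. Others were named after their values were seen, to complete a small count, a role or a motif list: Ndufa7, Ndufa8, Ndufa10, Ndufa11, Ndufa12, Ndufb4, Ndufv1, Sdhb, Uqcr11, Atp5h, Atp5j, Atp5o, Nrf1, Gabpa, Esrra, Yy1, Cyc1 and Ndufab1. The genes and lists were chosen with earlier results of these data known.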

Additional observations from a re-analysis of the deposited data

How the results depend on the processing

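No OXPHOS gene was called higher or lower under any of the alternatives run or at the looser adjusted p of 0.1. limma-voom called 0 of all features, so it could call none of these. The median log2 fold change of 0.042 was 0.014 with upper quartile scaling and 0.0027 with library totals alone. There the median of all features shifted alike (from -0.0016 to -0.029 and -0.040). The difference from it stayed at 0.043, which a factor per library can hardly change. The OXPHOS median was 0.0074 with a replicate block and a gene length correction (0.024 above that of all features). It ran from -0.124 to 0.160 when each library was left out. Such fits leave 1 library in a group, assumed to vary like the other group, and leave the treatments unbalanced by library number. The 37 OXPHOS genes named by rule gave 664 values, of which 0 passed the threshold, 576 kept the direction and 88 had the other one, 51 of these with a library left out; the cause was not tested. Over all features DESeq2 called 236 higher and 53 lower, where edgeR called 5 and 0.

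The labels number the libraries alike in both groups without naming a shared day, so the numbers are not taken as pairs. Deviations from the group means correlated between same-numbered libraries at 0.734 over all features and 0.915 over the OXPHOS genes. With the replicate block in edgeR the median was 0.045, 0 OXPHOS genes were called and the lowest adjusted p was 0.130. An unadjusted p under 0.05 was found for 5 of the 73: Atp5b, Ndufa3, Ndufa5 and Uqcrc2 higher and Cox8a lower. Of the 13285 tested features 913 were called higher and 768 lower at the adjusted threshold. All of these also had an unadjusted p under 0.05, a larger share than that of the OXPHOS genes. Of the biogenesis regulators, Ppargc1b was called lower (adjusted p = 0.00145) and Nrip1, named after its value was seen, higher (adjusted p = 0.0247), and of the ribosomal protein genes 1 mitochondrial one was called higher and 1 cytosolic one in each direction. Of the cell type markers, this edgeR fit called Pax7 lower (adjusted p = 0.000881). It called Pdgfra (adjusted p = 0.0172), Mymk (0.0277) and Mylpf (0.00485) higher.

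In the fit on group alone precision did not follow depth alone: Atp5b, with 2194 to 6236 counts, had a wider interval than Cox7b2, with 18 to 187. With the replicate block the order was the reverse, with an SE of 0.058 for Atp5b and 0.234 for Cox7b2. The lowest counts were those of Cox7b2, Cox8b and Ndufa1 (18, 31 and 35).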
